A study of Danio rerio with 28 samples.

Results

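Cytochrome P450 (cyp) genes other than those of steroid synthesis were followed in whole zebrafish embryos over the first days of development, with and without 17β-estradiol (E2). The members were all genes on the array whose symbol begins with cyp and a family number, except cyp19a1a, cyp19a1b, cyp11a1, cyp17a1, cyp11c1 and cyp21a2. This gave 52 genes, measured by 74 probes, of the 10536 genes that could be named on the array. The most intense probe of each gene over all arrays was taken as its main probe. cyp17a2 remained among the members because the choice was made by symbol, although its product acts on steroids in fish. Genes of the same kind that could not be matched to a probe, such as cyp1c2, cyp2r1, cyp27b1 and cyp2u1, were not analysed here.

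Pools of 30 wild-type embryos were exposed from about 3 h post fertilization (hpf) to 1 µM E2 in 0.1% DMSO or to 0.1% DMSO alone. They were collected at 24, 48, 72 and 104 hpf, called 1, 2, 3 or 4 days post fertilization (dpf). Each treatment had 3 pools at the earlier 2 stages and 4 pools at the later 2, which gave 8 groups and 28 one-colour arrays. A DMSO pool and an E2 pool with the same replicate number were taken as 1 pair, since replicates came from different spawnings, and all embryos, controls included, carried the vehicle.

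P450 enzymes are haem proteins that add oxygen to small lipophilic molecules. Some have one endogenous substrate each, such as retinoic acid, the vitamin D hormone, cholesterol or bile acid precursors, whereas the large families CYP1, CYP2, CYP3 and CYP4 oxidize drugs, pollutants and fatty acids. In adult vertebrates most enzymes of the second kind are made in the liver and the intestine. Several zebrafish CYP2 and CYP3 subfamilies lie in tandem arrays of closely related genes.

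Signals are given as log2 of the processed spot intensity after quantile normalization. A change is the difference of log2 signals fitted by limma over all 28 arrays with the replicate number as a block, with its standard error (SE), and p-values were adjusted by the Benjamini-Hochberg method over all 43603 probes. A step from 1 stage to the next in DMSO embryos was called when the adjusted p was under 0.05. Because of the block, a fitted step between 2 and 3 dpf can differ slightly from the difference between the group means. Signals of different probes were not compared with each other. In RNA from whole embryos, a change in the number of cells of a type and a change in RNA per cell cannot be told apart.

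Of the 52 members, 27 were well above background on all 28 arrays and 48 on every array of at least 1 group. Only 2 members, cyp46a1.5 and cyp8b1.2, were above background on no array but E2 replicate 1 of 3 dpf. This array stood apart from the other 27: it had 96.1% of its spots above background against 58.1% to 73.8%, and a median Spearman correlation of 0.85 with the arrays of its stage against 0.953 to 0.981. The step counts and the main E2 results of 3 dpf are given with and without it. Other SEs and p-values of the fit over all arrays include it, since the arrays share the estimate of each probe's spread. The stage labels were checked with marker genes. Of 11 exocrine pancreas genes, 11 were higher at 4 dpf than at 3 dpf in DMSO embryos, with a median change of 6.82, and of 4 hatching gland genes 2 were lower and 1 was higher.

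The main pattern among the P450 genes was the stage of the embryo. In DMSO embryos 37 of the 52 members (71.2%) changed in at least 1 step, against 57.9% of all named genes. From 1 to 2 dpf, 6 members rose (11.5%) and 14 fell (26.9%), where 17.9% of all named genes rose and 22% fell. From 2 to 3 dpf, 11 rose (21.2%) and 3 fell (5.77%), against 15.1% and 10.8% of named genes. From 3 to 4 dpf, 26 members rose (50%) and 5 fell (9.62%), against 8.57% and 10.8%. Without E2 replicate 1 of 3 dpf, which stood apart, the counts were 7 and 19, 13 and 4, and 31 and 5 in the 3 steps. The share of named genes was not taken for that fit. Over all 43603 probes its calls from 1 to 2 dpf numbered 13962, against 10928 with all arrays, so that more calls were not particular to the members. The median change of the members was -0.32, 0.20 and 0.75 in the 3 steps, and that of all named genes was -0.13, 0.02 and -0.06. A normexp background correction was also tried, with an offset of 50 added to the intensities, which by itself makes log2 changes of dim probes smaller. With this correction all 65 changes kept their direction, but 33 were smaller by over 1.5 times and 8 calls were lost. Among the larger ones, the first change of cyp4t8 was then -2.61 in place of -4.05, the last change of cyp2aa12 1.49 in place of 2.94, and the changes of cyp1b1 0.89 and -1.06 in place of 1.62 and -2.02. Within each of the 2 scan batches that held DMSO arrays of all stages, 65 of 65 changes had the fitted direction. The changes had been called from these same DMSO arrays, so that this agreement followed largely from their choice and does not test a batch effect. In the embryos exposed to E2, the differences between group means also had that direction in 65 of 65. The steps were chosen in DMSO embryos, and the share of named genes was not taken. For the rises of the 3 steps the median was 1.97, 0.95 and 2.50 with E2, against fitted changes of 1.89, 1.52 and 1.96 in DMSO embryos. For the falls it was -1.25, -1.38 and -0.44 with E2, against -1.56, -1.49 and -0.87.

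**Figure D1:**
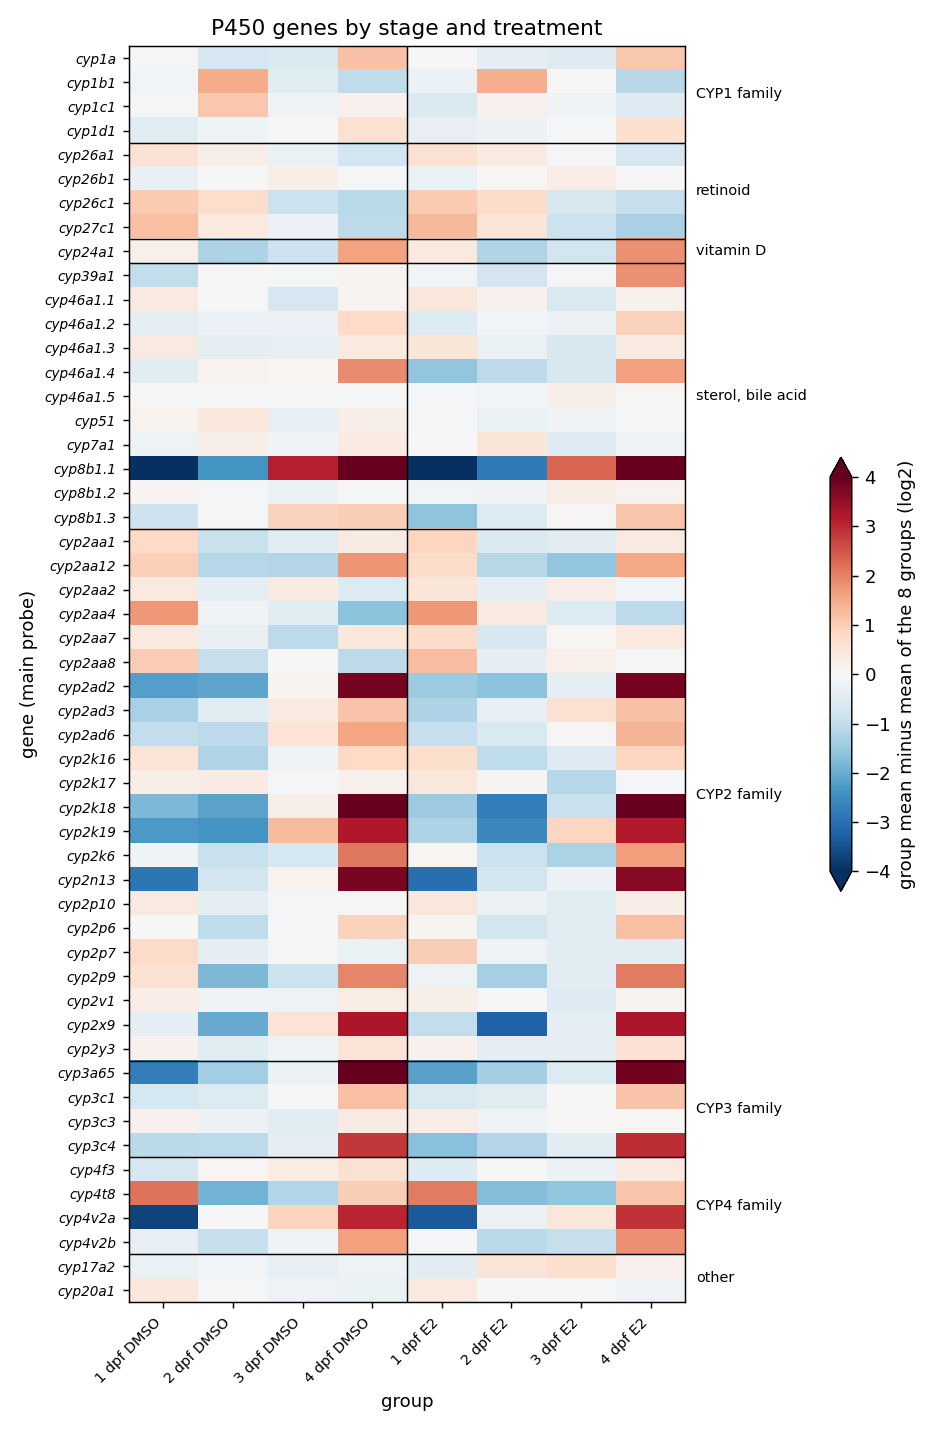
Mean normalized log2 signal of each of the 52 P450 genes (rows, main probe, grouped by family or substrate) in the 8 groups (columns), minus the mean of the gene over the 8 groups; red is higher and blue is lower, and colours end at 4 log2 units. The direction of 65 of the 65 called steps is the same in the DMSO and E2 columns, and 26 of the 52 genes rose from 3 to 4 dpf in DMSO embryos.

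Among the families, the last step was most uniform in CYP3, where 4 of 4 members rose, and in CYP4, where 3 of 4 rose. In CYP2, 12 of 22 rose and 3 fell. Of the 11 sterol and bile acid genes 4 rose, and of the 4 CYP1 genes 2 rose. Of the 4 retinoid genes 0 rose and 2 fell in this step.

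cyp3a65, the main CYP3A gene of zebrafish, whose mammalian relatives oxidize a large share of drugs in liver and intestine, rose most from 3 to 4 dpf. In DMSO embryos its log2 signal was 3.67, 3.17 and 4.63 at 1 dpf compared with 4.99, 5.83 and 4.82 at 2 dpf. It was 5.97, 6.27, 6.46 and 6.69 at 3 dpf and then 9.83, 11.74, 11.42 and 12.08 at 4 dpf. The 4 dpf pools lay above all pools of 3 dpf, and the change of 4.92 (SE 0.39, n = 4 per group) corresponded to 30.3-fold (limma, adjusted p = 6.21e-08). It also rose from 1 to 2 dpf by 1.39 (SE 0.45, adjusted p = 0.0277). That earlier call was lost without the replicate block (adjusted p = 0.0855), with a normexp background correction (0.509) and when DMSO replicate 2 of 1 dpf or DMSO replicate 1 or 2 of 2 dpf was left out.

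The 3 measured cyp3c genes, of a fish-specific subfamily that lies in 1 run of neighbours, rose in the same step. cyp3c4 had log2 signals of 3.56, 3.72, 4.45 and 4.19 in the 3 dpf DMSO pools and 6.30, 7.35, 7.51 and 7.62 at 4 dpf. These groups did not overlap, and the change was 3.22 (SE 0.31, adjusted p = 9.17e-07), or 1.44 with the normexp correction. A second, dimmer probe of cyp3c4 changed by only 0.40 in this step. For cyp3c1 the signals were 8.40, 8.87, 8.93 and 8.85 at 3 dpf and then 9.75, 9.93, 10.08 and 10.06 at 4 dpf. All pools of 4 dpf were again higher, with a change of 1.19 (SE 0.12, adjusted p = 1.39e-06) after a smaller rise of 0.55 (SE 0.13) from 2 to 3 dpf, whose call was lost with slide as a block. cyp3c3 rose by 0.75 on its main probe (SE 0.24, adjusted p = 0.0482), and its call was lost in 22 of 28 fits that left out an array and in 6 of 8 other alternatives, with a change of 0.39 under normexp. A weaker second probe for cyp3c3 changed by 3.11 (SE 0.47, adjusted p = 0.000165).

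Genes of bile acid synthesis did not move together. cyp8b1.1 encodes a sterol hydroxylase, the enzyme that sets the ratio of bile acid types in mammals, and in the reference annotation it lies between cyp8b1.2 and cyp8b1.3. Its log2 signal was 0.55, 0.64 and 0.58 in the DMSO pools of 1 dpf, not well above background, and 3.04, 4.42 and 2.96 at 2 dpf. It reached 8.82, 8.65, 9.17 and 9.17 at 3 dpf and then 11.41, 11.34, 10.74 and 10.17 at 4 dpf. No 2 stages overlapped. The rise was at least 1.43-fold from 1 to 2 dpf, where a dim array counted with its own value or, if higher, with the lowest signal among its probes well above background. It was 5.47 on the log2 scale (SE 0.40, adjusted p = 1.80e-08), or 44.4-fold, from 2 to 3 dpf and 1.96 (SE 0.37, adjusted p = 0.00133) from 3 to 4 dpf. With the normexp correction the first change was 0.25 on the log2 scale and lost its call (adjusted p = 0.687), and the second was 3.02. Bounds given as "at least" hold for the signals without that correction, which brought several changes below them.

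cyp8b1.2 stayed at background in every DMSO group, and cyp8b1.3, with values of 3.74 to 4.48 at 4 dpf, passed the test in no step. cyp7a1, the rate-limiting enzyme of bile acid synthesis in mammals, also passed in no step, with changes of 0.44, -0.20 and 0.49 (SE 0.50, 0.48 and 0.43). Of 8 genes for bile acid and xenobiotic receptors and transport, 5 rose from 2 to 3 dpf and 3 from 3 to 4 dpf. The bile acid receptor nr1h4 changed by 2.90 (SE 0.55) from 2 to 3 dpf, and the intestinal bile acid transporter slc10a2 by 2.77 (SE 0.29) from 3 to 4 dpf.

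Some markers of the organs in which these enzymes are known from adults changed over the same days. The mean log2 signal of 9 liver genes was 12.23 to 12.42 in the 3 dpf DMSO pools and 12.35 to 13.44 at 4 dpf. Of these 9 genes 2 rose from 3 to 4 dpf, the fatty acid binding protein fabp10a by 3.59 (SE 0.47) and the vitamin D binding protein gc by 3.80 (SE 0.27), and 1, apobb.1, fell by 0.86. Only 3 of the 9 had a change above 0, and the median change was -0.02, so that most of the list did not share the rise. The mean of 4 intestinal genes was 8.35 to 9.51 at 3 dpf and 11.93 to 12.34 at 4 dpf, and 3 of the 4 rose. The part of organ growth in the rise of the P450 genes was not tested.

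**Figure D2:**
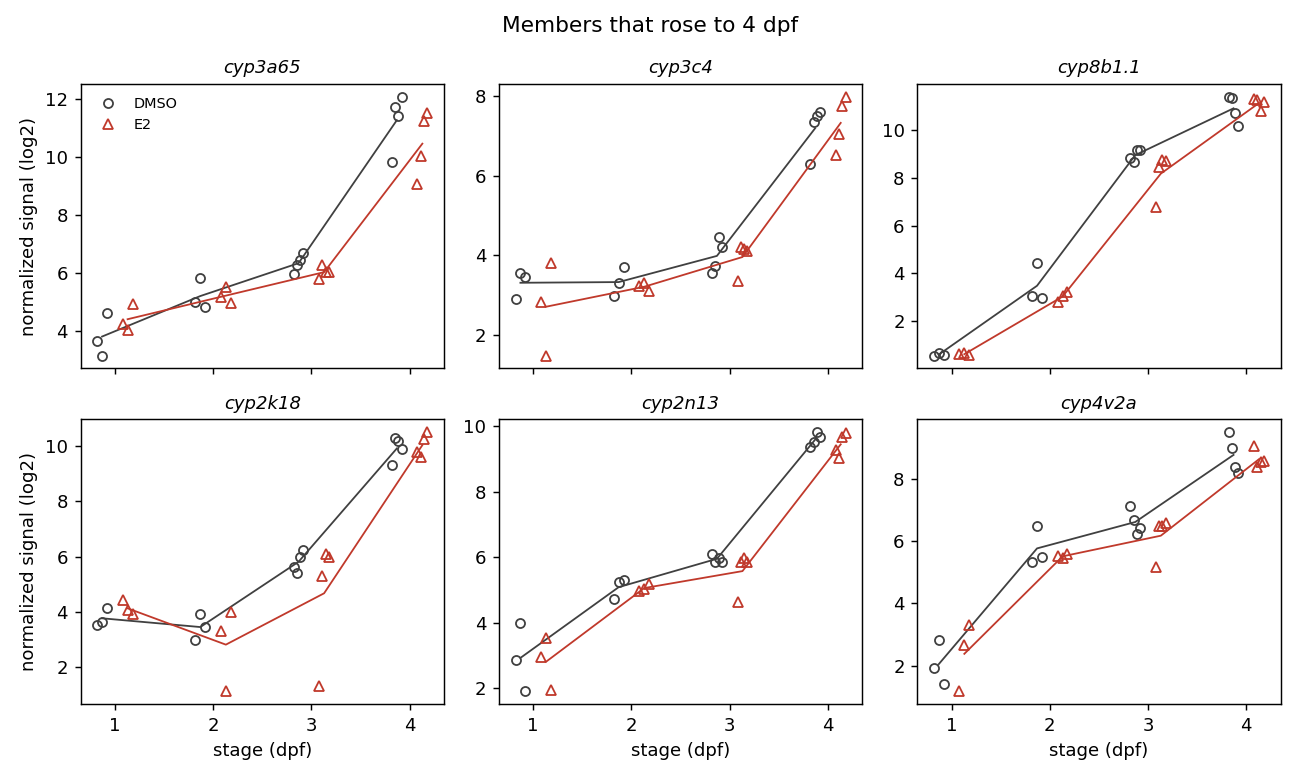
Normalized log2 signal (y axis) of 6 P450 genes by stage (x axis, dpf) in each pool, with DMSO pools as grey circles, E2 pools as red triangles and lines through the group means. In all 6 genes the DMSO pools of 4 dpf lie above those of 3 dpf, and in all 6 the lowest E2 pool of 3 dpf is replicate 1.

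The largest rises in CYP2 were in a fish subfamily, cyp2k, and among genes related to mammalian CYP2J, whose products oxidize arachidonic acid. cyp2k18 had log2 signals of 3.54, 3.63 and 4.14 at 1 dpf compared with 2.99, 3.91 and 3.46 at 2 dpf. It was 5.62, 5.41, 5.99 and 6.25 at 3 dpf and then 9.31, 10.28, 10.18 and 9.90 at 4 dpf. The 3 dpf pools lay above those of 2 dpf and the 4 dpf pools above those of 3 dpf. The last change was 4.10 (SE 0.67, adjusted p = 0.000369), or 17.2-fold. The change of 2.18 from 2 to 3 dpf (SE 0.74) had an adjusted p of 0.0497, and this call was lost in 21 of 28 fits that left out an array and in 2 of 8 other alternatives, and the change with normexp was 0.67. A dim second probe of cyp2k18 did not show the last rise (-0.14, SE 0.26).

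cyp2k19, from the same run of neighbours, was at background in all DMSO pools of 1 and 2 dpf, with values of 1.22, 0.96 and 1.75 at 2 dpf. It was 5.05, 4.66, 5.04 and 5.08 at 3 dpf, a rise of at least 6.11-fold (adjusted p = 8.03e-09), and 7.34, 6.83, 6.93 and 6.55 at 4 dpf. With the normexp correction the log2 change from 2 to 3 dpf was 0.43 in place of 3.67, and the last was 0.84. Without it the last change was 1.95 (SE 0.23, adjusted p = 1.00e-05), and a second probe of the gene changed by 2.27 (SE 0.61). cyp2k16 first fell and then rose, from 8.61, 8.61 and 8.09 at 1 dpf to 6.68, 6.98 and 6.47 at 2 dpf and later 9.08, 9.04, 8.46 and 8.24 at 4 dpf. Its 3 steps of -1.73 (SE 0.24), 1.13 (SE 0.23) and 0.94 (SE 0.21) all passed the test. cyp2k6 rose by 2.82 (SE 0.73, adjusted p = 0.0151) from 3 to 4 dpf, when it was above background on 1 and 4 of 4 arrays, and its call was lost with slide as a block, when the stages were fitted alone and without DMSO replicate 3 or 4 of 3 dpf or DMSO replicate 3 of 4 dpf. With normexp the change was 0.47. cyp2k17, between these genes, changed in no step (0.10, -0.41 and 0.25, SE 0.49 to 0.56). Thus 4 of the 5 cyp2k genes rose in the last step.

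A second run of neighbours reaches from cyp2n13 to cyp2p10, and 9 of its genes were measured. cyp2n13 had log2 signals of 2.87, 3.99 and 1.90 at 1 dpf compared with 4.72, 5.23 and 5.30 at 2 dpf. It was 6.11, 5.84, 5.98 and 5.86 at 3 dpf and then 9.35, 9.53, 9.81 and 9.67 at 4 dpf. Each stage lay above the one before, with called changes of 2.16 (SE 0.41) in the first step (0.52 with normexp), when 1 of 3 pools of 1 dpf was above background, and 3.64 (SE 0.36, adjusted p = 1.02e-06) in the last. cyp2ad2 was at background at 1 and 2 dpf and rose by at least 1.64-fold to 3 dpf, a call lost in 3 of 8 other alternatives, among them normexp (0.21, adjusted p = 0.186), and without DMSO replicate 3 of 2 or of 3 dpf. It was 2.57, 1.46, 4.29 and 3.92 at 3 dpf and then 6.68, 6.65, 6.96 and 6.86 at 4 dpf, a change of 3.73 (SE 0.49, adjusted p = 3.98e-05), or 1.41 with normexp. At 3 dpf pools 1 and 2 were lower than pools 3 and 4, and all pools of 4 dpf were higher than these. cyp2ad3 rose in all 3 steps by 0.87, 0.72 and 0.77 (SE 0.16 to 0.19). All 3 calls for cyp2ad3 rested on the block, since its adjusted p was 0.0982, 0.148 and 0.186 without it.

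cyp2p9 fell from 3.16, 2.96 and 2.99 at 1 dpf to background at 2 dpf (0.71, 0.58 and 0.55) and rose to 4.23, 4.63, 4.47 and 4.16 at 4 dpf. The fall was at least 1.61-fold, with 1 of 3 pools of 1 dpf above background, and its call was lost with the normexp correction (-0.20, adjusted p = 0.0625). The last step was 2.83 (SE 0.49, adjusted p = 0.000603), or 0.41 with normexp. In contrast cyp2v1, cyp2p7 and cyp2p10, in the same run, were called in no step. cyp2ad6 was at least 2.67-fold higher at 3 than at 2 dpf, but its log2 change with the normexp correction was 0.20, and the call was lost with that correction, with slide as a block and without DMSO replicate 3 of 2 dpf. cyp2p6 fell by 1.04 (SE 0.37, adjusted p = 0.0434, or -0.67 with normexp) from 1 to 2 dpf, a call that was lost without the block and in 20 of 28 fits that left out an array. The run thus held 4 genes that rose from 3 to 4 dpf and 5 that did not pass the test. Outside these runs, cyp2x9, another fish CYP2 gene, rose by 2.52 (SE 0.66, adjusted p = 0.0115) from 2 to 3 dpf and by 2.67 (SE 0.60, adjusted p = 0.00558) from 3 to 4 dpf. The first of these changes was 1.02 with normexp, and its call was lost when each pair of stages was fitted alone and without DMSO replicate 3 of 2 dpf.

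The cyp2aa genes, another fish subfamily, lie in 2 runs of neighbours. From 1 to 2 dpf, 5 of the 6 measured cyp2aa genes fell, and 1 of the 5 cyp2k genes. cyp2aa12 fell from 7.92, 6.17 and 6.36 to 5.06, 4.98 and 4.06, and rose from 4.89, 5.22, 4.14 and 4.47 at 3 dpf to 7.89, 7.61, 7.47 and 7.53 at 4 dpf. Neither pair of groups overlapped, and the changes were -2.11 (SE 0.38, adjusted p = 0.00026) and 2.94 (SE 0.33, adjusted p = 5.29e-06). cyp2aa8 fell from 11.10, 10.61 and 11.62 to 9.31, 8.46 and 9.75, was 9.86, 10.07, 10.38 and 10.24 at 3 dpf, and was 9.87, 8.68, 9.49 and 8.17 at 4 dpf. Its changes of -1.94 (SE 0.33), 1.00 (SE 0.31) and -1.09 (SE 0.28) were called, but the groups of 3 and 4 dpf overlapped, and the last 2 calls were lost without the replicate block (adjusted p = 0.115 and 0.0713), with slide as a block and in 5 and 3 of 28 fits that left out an array.

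cyp2aa4 fell in the first step by 1.87 (SE 0.42, adjusted p = 0.00215), from 10.19, 10.23 and 11.02 to 9.01, 8.27 and 8.55. It fell further from 3 to 4 dpf by 1.19 (SE 0.36, adjusted p = 0.0409), with overlapping groups, and this call was lost in 10 of 28 fits that left out an array and in 4 of 8 other alternatives. cyp2aa1 fell by 1.68 (SE 0.30, adjusted p = 0.000245, or -0.70 with normexp) and cyp2aa2 by 0.78 (SE 0.23, adjusted p = 0.0172, or 0.0936 without the block) from 1 to 2 dpf, the call of cyp2aa2 being lost in 4 of 28 fits that left out an array (DMSO replicates 1 and 3 of 1 dpf and 1 and 2 of 2 dpf). The remaining gene, cyp2aa7, changed by -0.68 (SE 0.50) in that step, which did not pass, and by 1.46 (SE 0.43, adjusted p = 0.0335) from 3 to 4 dpf. That call was lost in 5 of 28 fits that left out an array (DMSO replicates 1 and 2 of 3 dpf and 2, 3 and 4 of 4 dpf) and in 4 of 8 other alternatives, and the change with normexp was 0.63. In the later steps cyp2aa2 rose by 0.79 from 2 to 3 dpf (limma, adjusted p = 0.0185). It fell by 0.87 from 3 to 4 dpf (limma, adjusted p = 0.00708). Both calls were lost without the block, and the first also in 3 of 28 fits that left out an array. The probes of close paralogues may bind more than 1 transcript, and this was not tested.

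**Figure D3:**
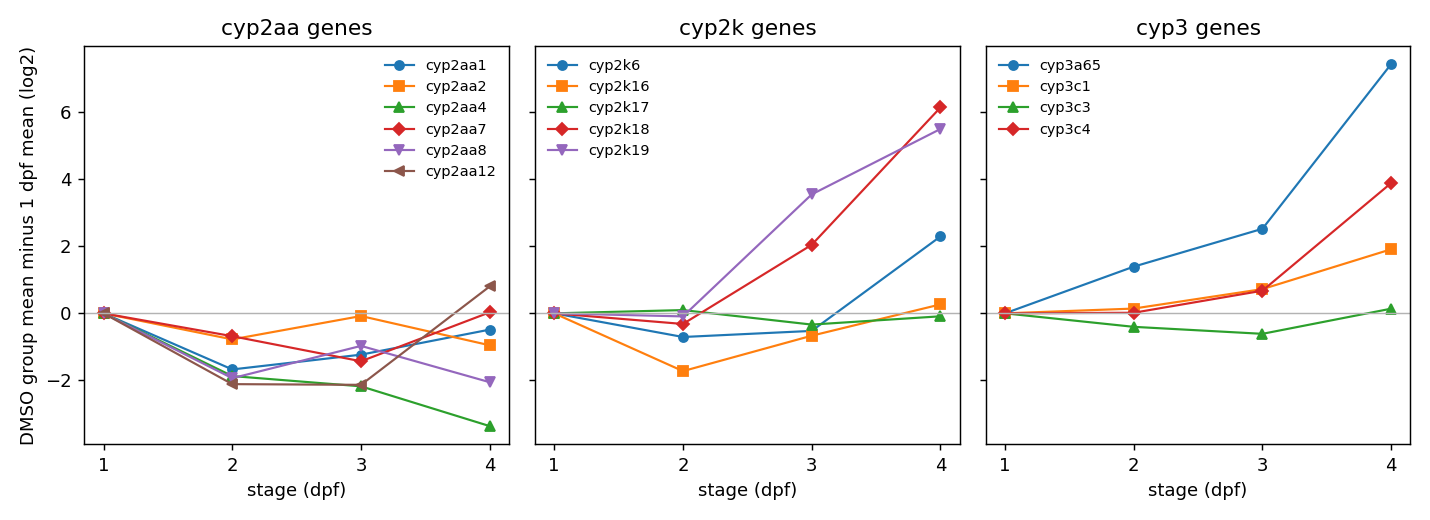
Mean normalized log2 signal of DMSO pools at each stage (x axis, dpf) minus the 1 dpf mean of the gene (y axis, log2) for 6 cyp2aa, 5 cyp2k and 4 cyp3 genes. All 6 cyp2aa lines are below 0 at 2 dpf, as are those of cyp2k16, cyp2k18 and cyp2k19. The lines of cyp2k18, cyp2k19, cyp3a65 and cyp3c4 climb from 3 to 4 dpf, as do those of cyp2aa12 and cyp2aa7.

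The CYP1 genes, which oxidize aromatic hydrocarbons and, in human, also estradiol, did not move together. cyp1a, the classical target of the aryl hydrocarbon receptor (AhR), was 8.63, 8.51 and 8.63 in the 2 dpf pools, 8.83, 8.66, 8.72 and 8.56 at 3 dpf and then 10.80, 10.17, 10.64 and 10.13 at 4 dpf in DMSO embryos. The pools of 4 dpf lay above all others, with a change of 1.74 from 3 dpf (SE 0.24, adjusted p = 5.49e-05), or 3.35-fold. The other 2 probes of cyp1a changed by 1.62 (SE 0.32) and 1.76 (SE 0.56).

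cyp1b1, expressed in the developing eye in zebrafish, peaked at 2 dpf. It was 6.20, 5.64 and 5.87 at 1 dpf compared with 7.70, 7.07 and 7.79 at 2 dpf. It was 5.14, 5.33, 5.82 and 5.89 at 3 dpf and then 4.49, 4.96, 5.33 and 5.22 at 4 dpf. The 2 dpf pools did not overlap with either neighbour, and the changes were 1.62 (SE 0.26, adjusted p = 8.50e-05) and -2.02 (SE 0.25, adjusted p = 1.05e-05). cyp1d1 rose by 0.63 (SE 0.11, adjusted p = 0.000706, or 0.0659 without the block) in the last step, and cyp1c1 changed in none, with values between 1.95 and 4.57. Of 10 genes of the AhR pathway and its partners 1, 2 and 1 rose in the 3 steps and 0 fell. The receptor ahr2 rose by 1.37 (SE 0.13) and 0.64 (SE 0.12) in the first steps, and the AhR target nqo1 by 0.64 (SE 0.14) and 0.55 (SE 0.12) in the last.

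Of the 3 enzymes that remove retinoic acid, the morphogen made from vitamin A, 2 fell. cyp26c1 was 11.72, 11.72 and 11.70 at 1 dpf compared with 11.79, 11.20 and 11.13 at 2 dpf. It was 9.99, 10.22, 9.51 and 9.59 at 3 dpf and then 9.62, 9.88, 9.55 and 9.38 at 4 dpf. All pools of 3 dpf were lower than those of 2 dpf, and the change was -1.49 (SE 0.15, adjusted p = 1.15e-06). cyp26a1 fell in smaller steps, by 0.48 (SE 0.14, adjusted p = 0.0223) from 2 to 3 dpf and by 0.53 (SE 0.13, adjusted p = 0.00907) from 3 to 4 dpf, and the groups did not overlap in either step. The first of these calls was lost without the block (adjusted p = 0.0587), in 2 of the other 7 alternatives and without DMSO replicate 2 or 3 of 2 dpf or DMSO replicate 3 of 3 dpf.

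cyp26b1 changed in no step (0.27, 0.26 and -0.29, SE 0.17 to 0.20) and stayed between 11.03 and 11.69 in all 14 DMSO pools. cyp27c1, which makes the red-shifted form of vitamin A in zebrafish, fell by 0.83 (SE 0.29, adjusted p = 0.0422) and again by 0.83 (SE 0.25, adjusted p = 0.0397) in the first and last steps. Its calls were lost in 10 and 7 of 28 fits that left out an array and in 2 and 6 of 8 other alternatives, and the changes with normexp were -0.48 and -0.29. Of 16 genes of retinoic acid supply and response, 4 rose and 4 fell from 1 to 2 dpf, 3 rose and 2 fell from 2 to 3 dpf, and 2 rose and 1 fell from 3 to 4 dpf. Among them aldh1a2, which makes retinoic acid, changed by -0.50 (SE 0.10), 0.30 (SE 0.10) and 0.33 (SE 0.09).

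cyp24a1, which inactivates the vitamin D hormone, fell and then rose. Its log2 signal was 7.98, 7.21 and 6.99 at 1 dpf compared with 5.72, 6.07 and 6.06 at 2 dpf. It was 6.27, 6.48, 6.31 and 6.45 at 3 dpf and then 7.86, 8.76, 9.21 and 9.39 at 4 dpf. The groups did not overlap in the first and last steps, in which it changed by -1.45 (SE 0.36, adjusted p = 0.00439) and 2.43 (SE 0.31, adjusted p = 2.53e-05), the first being -0.88 with normexp. Of 3 measured genes for vitamin D binding and receptors, only gc changed. cyp4t8, a fish CYP4 gene, also fell in the first step and rose in the last, from 8.25, 9.34 and 9.54 at 1 dpf to 6.11, 4.46 and 4.41 at 2 dpf. It was 5.18, 5.75, 5.98 and 5.86 at 3 dpf and then 7.44, 7.70, 8.07 and 8.27 at 4 dpf. The changes were -4.05 (SE 0.55, adjusted p = 1.28e-05), or 16.6-fold lower, and 2.18 (SE 0.48, adjusted p = 0.00504, or 1.30 with normexp), again without overlap. The second, dimmer probe of cyp4t8 passed the test in no step.

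A fall from 1 to 2 dpf followed by a rise from 3 to 4 dpf was found for 7 of the 52 members (13.5%), against 1.41% of named genes. The 7 were cyp24a1, cyp2aa12, cyp2k16, cyp2p9, cyp2y3, cyp46a1.3 and cyp4t8. cyp2y3, for instance, changed by -0.60 (SE 0.12) and 0.73 (SE 0.11). The first call of cyp46a1.3 was lost in 4 of 28 fits that left out an array (DMSO replicates 1 and 3 of 1 dpf and 2 and 3 of 2 dpf) and in 2 of 8 other alternatives. For cyp46a1.3 a second, dimmer probe had the opposite sign in the first step (1.37, SE 0.51). A rise in the last step only was found for 9 members (17.3% against 2.58%), and rises in both later steps for 8 (15.4% against 4.1%). These courses combine the calls of the single steps, so that their shares are not results apart from the many rises in the last step. At the other end, 15 members were called in no step, among them cyp46a1.4 and cyp46a1.5, the oxysterol hydroxylase gene cyp39a1, and the steroid hydroxylase gene cyp17a2, which was at background in every DMSO pool.

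**Figure D4:**
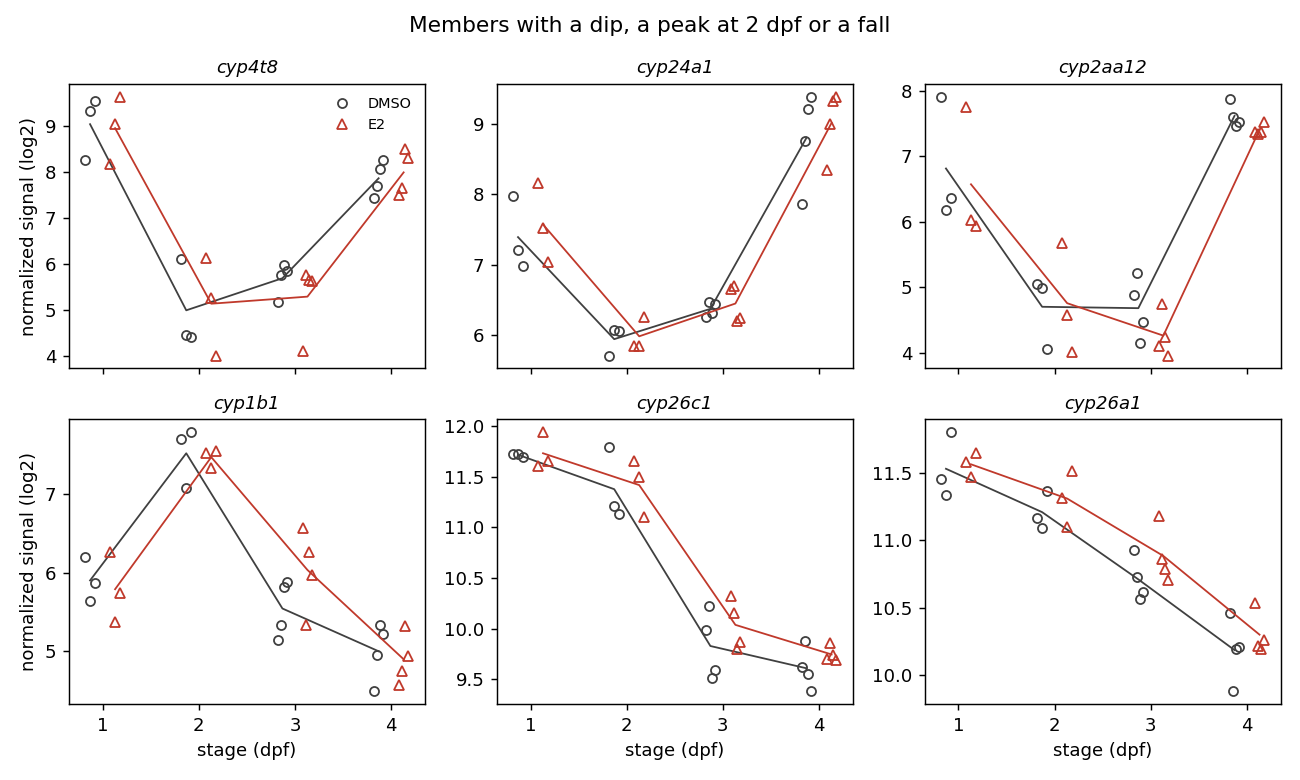
Normalized log2 signal (y axis) of 6 P450 genes by stage (x axis, dpf) in each pool, with DMSO pools as grey circles, E2 pools as red triangles and lines through the group means. cyp4t8, cyp24a1 and cyp2aa12 are low at 2 and 3 dpf, cyp1b1 is highest at 2 dpf, and cyp26c1 and cyp26a1 fall.

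Of the other CYP4 genes, cyp4v2a, whose human relative hydroxylates fatty acids, was at background in all DMSO pools of 1 dpf. It had reached 5.32, 6.50 and 5.48 at 2 dpf, at least 7.01-fold higher (adjusted p = 7.98e-06), but with the normexp correction the log2 change was 0.68 in place of 3.72. It was 7.14, 6.69, 6.22 and 6.42 at 3 dpf and then 9.50, 8.99, 8.40 and 8.21 at 4 dpf. The last change was 2.16 (SE 0.42, adjusted p = 0.00203), with no overlap. cyp4v2b was at least 3.51-fold higher at 4 than at 3 dpf (adjusted p = 0.017), but its log2 change with normexp was 0.25 in place of 1.84. The call was lost without DMSO replicate 1 or 4 of 3 dpf or DMSO replicate 1 of 4 dpf. cyp4f3 was called in no step.

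Of 5 measured copies of cyp46a1, 3 rose in the last step, and cyp51 was called in none. cyp51, which removes a methyl group from lanosterol in cholesterol synthesis, changed by 0.28, -0.86 and 0.57 (SE 0.65, 0.62 and 0.57), and its 2 probes had opposite signs in each of them. Of 20 genes of sterol synthesis 9 rose and 1 fell from 2 to 3 dpf, and the rate-limiting reductase hmgcra rose by 1.93 (SE 0.25). cyp46a1.2, a copy related to the cholesterol hydroxylase of the mammalian brain, rose from 3 to 4 dpf by 1.05 (SE 0.16, adjusted p = 0.000183), although its groups overlapped. The signals were 4.67, 5.55, 3.77 and 3.81 at 3 dpf and then 5.33, 6.89, 4.99 and 4.82 at 4 dpf. Each pool of 4 dpf was above the pool of 3 dpf with the same number, but the labels do not show that such pools shared a spawning. Without the block its adjusted p was 0.438, and with normexp the change was 0.35. cyp46a1.1 and cyp46a1.3 rose by 0.79 and 0.72 in that step with calls that were also lost without the block and in 8 and 4 of 28 fits that left out an array. For cyp46a1.1 these 8 fits were all those that left out a DMSO array of 3 or 4 dpf. With normexp the changes of cyp46a1.1 and cyp46a1.3 were 0.32 and 0.46, and the call of cyp46a1.1 was lost. The call of cyp46a1.3 was also lost when each pair of stages was fitted alone. cyp20a1, an enzyme with no known substrate, fell by 0.50 (SE 0.11, adjusted p = 0.00237, or 0.101 without the block) from 1 to 2 dpf. Of 10 genes for electron donors and haem supply, on which P450 enzymes depend, 2, 1 and 3 rose and 3, 2 and 0 fell in the 3 steps. The haem synthesis gene alas1 rose by 0.45 (SE 0.13) in the last.

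The comparison of E2 with DMSO called few members. At an adjusted p under 0.05 there were 0 members at each stage, where the share of named genes was 0%, 0.019%, 0.019% and 0.0759% from the earliest to the latest. The criterion of the study was an unadjusted p of at most 0.01 with a change of at least 1.4-fold. Applied here to the limma fit over all arrays, it gave counts of 1, 0, 0 and 1 in the same order. The share of named genes past this criterion was 0.209%, 0.171%, 0.664% and 0.361%. The study applied it to its own analysis of variance of each stage, after removal of batch effects. In its lists the member cyp1b1 is E2-responsive at 3 dpf, as described below. At an unadjusted p under 0.05 there were 1, 0, 5 and 2 members, where the share of named genes was 0.98%, 0.94%, 4.8% and 1.8%. Without E2 replicate 1 of 3 dpf these counts were 1, 2 and 3 at 1, 2 and 4 dpf. Those past the study criterion stayed 1, 0 and 1. Over all 43603 probes the criterion then called 280, 279 and 366 at these stages, against 177, 100 and 215 with all arrays. The share of named genes was not taken for that fit. The effect of E2 differed between stages for 0 members by the adjusted test of the interaction (0.0759% of named genes) and for 1 at an unadjusted p under 0.05. For the last count the share of named genes was not taken. The precision was limited: the 95% interval of the change lay within 1 log2 unit of 0 for 30, 29, 26 and 33 of the 52 members at the 4 stages. The block had 1 level per replicate number over all stages, so that the fit did not model each pair of a stage. With each stage fitted alone, where the block did so, 3, 3, 0 and 5 members had an unadjusted p under 0.05. The study criterion then gave 1, 0, 0 and 0, and the adjusted count stayed 0 at each stage. The share of named genes was not taken for those fits.

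The 2 members past the criterion of the study in the fit used here were both in CYP2. cyp2aa8 was 9.87, 8.68, 9.49 and 8.17 in the DMSO pools of 4 dpf and 10.66, 9.62, 9.59 and 10.20 in the E2 pools of replicates 1 to 4. Each E2 pool was higher than the DMSO pool of its number, although the groups overlapped. The change was 0.97 (SE 0.28, 95% interval 0.37 to 1.56, unadjusted p = 0.00296 and adjusted p = 1, limma), and 1.39 and 1.06 within the 2 scan batches that held both treatments. cyp2aa8 had been picked on these same arrays, so that the values within batches followed largely from its choice. The criterion was no longer met when 4 dpf was fitted alone, when arrays were weighted, or without DMSO replicate 4, E2 replicate 1 or E2 replicate 4. The pair of replicate 4 differed most. Its E2 array had the most outlier spots of all arrays, 529, and the lowest share of spots above background, 58.1%. The E2 pools of cyp2aa8 were also higher in 3 of 3 pairs at 1 and 2 dpf and in 4 of 4 at 3 dpf, by 0.24, 0.54 and 0.17 (SE 0.33, 0.33 and 0.28), none of which passed. For its neighbour cyp2aa2 the change at 4 dpf was 0.44 (SE 0.20, unadjusted p = 0.0403, adjusted p = 1).

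cyp2k19 was 1.18, 1.54 and 1.49 in the DMSO pools of 1 dpf and 2.09, 2.77 and 2.56 in the E2 pools. The groups did not overlap, but the probe was not well above background on any of these arrays, so that no fold is given (change 1.07, SE 0.26, unadjusted p = 0.00072, adjusted p = 1). Within the 2 scan batches that held both treatments the differences were 0.73 and 1.06. These values followed largely from the choice of the gene on the same arrays. A second, dimmer probe of cyp2k19 was 0.83 and 0.92 in the 2 DMSO pools where it was kept and 0.81, 0.88 and 0.75 in the E2 pools, a change of -0.18 (SE 0.76). With 75th percentile scaling or the normexp correction, or without E2 replicate 2, the main probe did not meet the criterion.

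For genes often used to read exposure to chemicals, the changes of the main probes after E2 did not pass either criterion. For cyp1a the change was 0.03, 0.30, 0.08 and -0.09 at the 4 stages, with a 95% interval for the last that ran from -0.59 to 0.41. Over the 3 probes of cyp1a the changes spread more widely, from -0.07 to 0.26, 0.12 to 0.73, -0.18 to 1.09 and -0.33 to -0.09. For cyp3a65 the 4 dpf pools were 9.83, 11.74, 11.42 and 12.08 with DMSO and 9.07, 10.03, 11.23 and 11.51 with E2. The E2 pool was lower in 4 of 4 pairs, the groups overlapped, and the change of -0.81 (SE 0.39, interval -1.63 to 0.01) did not pass (unadjusted p = 0.0532, adjusted p = 1). For cyp26a1, a gene with narrow errors, the interval at 4 dpf was -0.15 to 0.38.

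At 3 dpf the median of the members moved with 1 array. Over all arrays 19 of 52 changes were above 0 and their median was -0.14, where the median of named genes was -0.03. Without E2 replicate 1 of that stage the median was 0.01, 26 of 52 were above 0 and 2 had an unadjusted p under 0.05. For this last count the share of named genes was not taken. On that array 31 of 52 members had the lowest value of the 4 E2 pools and 11 the highest. The share of named genes was not taken for these counts, so that they cannot be called particular to the members. cyp2k18 was 1.31 there and 5.30, 6.09 and 6.00 in the other E2 pools, and cyp8b1.1 was 6.76 against 8.47, 8.76 and 8.72. The mean of the intestinal genes on this array was 6.62 against 8.00 to 9.10 in the other E2 pools of 3 dpf, that of the pancreatic genes 5.55 against 6.38 to 6.92, and that of the hatching gland genes 9.86 against 7.75 to 9.47. For the intestinal genes the values of the 2 dpf DMSO pools were 6.62 to 7.19. In the 2 dpf DMSO pools the pancreatic genes were 4.25 to 4.61, the hatching gland genes 11.44 to 11.83 and the liver genes 11.17 to 11.55. In those of 3 dpf the pancreatic genes were 6.62 to 7.18 and the hatching gland genes 7.95 to 9.06. The intestinal genes were 8.35 to 9.51 in these 3 dpf DMSO pools. The mean of the liver genes was lower in all 4 E2 pools of 3 dpf, at 11.94 on this array and 11.84 to 12.12 on the others, than in the DMSO pools (12.23 to 12.42). Of these 9 genes 5 had a change above 0, and 2 met the criterion of the study as lower, fabp10a (-2.65, SE 0.47, adjusted p = 0.0572) and gc (-1.34, SE 0.27, adjusted p = 0.137, limma). Without E2 replicate 1 these were -2.65 and -1.10 (adjusted p = 0.152 and 0.539). The part of pool age, array quality or liver RNA in the values of the members was not tested.

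Over all arrays the 5 members with an unadjusted p under 0.05 at 3 dpf were cyp1b1 (0.49, SE 0.23), cyp27c1 (-0.64, SE 0.25), cyp2aa7 (1.14, SE 0.43), cyp2k17 (-1.04, SE 0.49) and cyp8b1.1 (-0.78, SE 0.37), with adjusted p = 0.654 for each. Without E2 replicate 1 the changes were 0.29 for cyp1b1, -0.31 for cyp27c1, 1.00 for cyp2aa7, -0.56 for cyp2k17 and -0.31 for cyp8b1.1, and of these cyp2aa7 alone kept an unadjusted p under 0.05 (0.0483). The other member then under 0.05 was cyp2k19 (-0.59, SE 0.23, unadjusted p = 0.0205), and the adjusted p was 0.9999 for both. For cyp2aa7 the DMSO pools were 3.59, 3.34, 6.15 and 6.05 and the E2 pools 5.74, 5.64, 6.18 and 6.12, so that the difference lay in replicates 1 and 2. The paper lists cyp1b1 among its E2-responsive genes at 3 dpf, from its own test of that stage. In the limma fit over all arrays the unadjusted p of cyp1b1 was 0.0427, above the 0.01 of the study criterion. The reason for this difference was not tested.

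**Figure D5:**
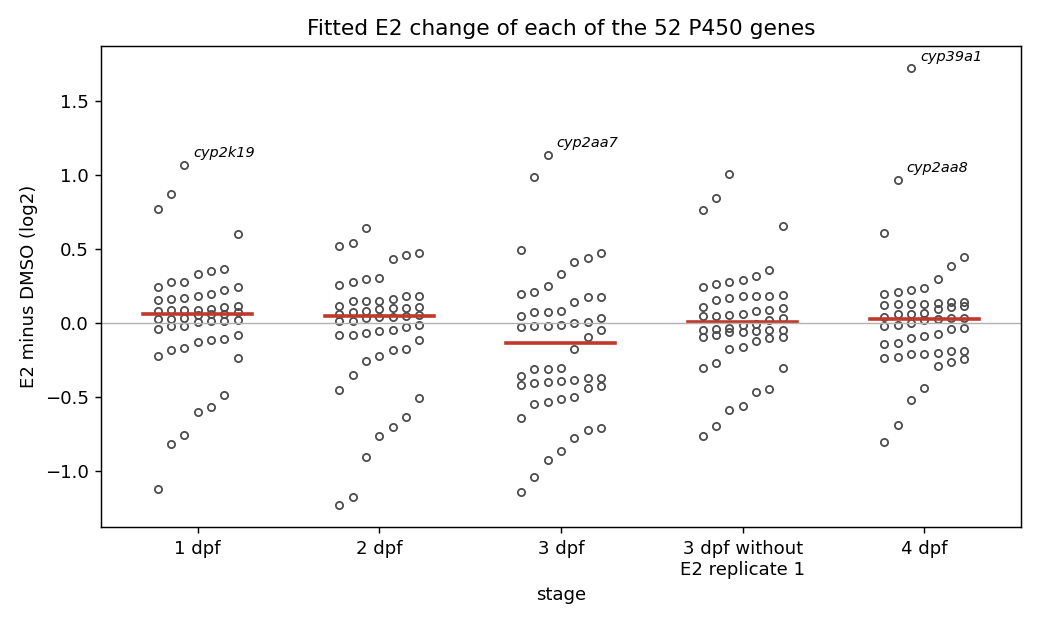
Fitted change with E2 (y axis, E2 minus DMSO, log2) of each of the 52 P450 genes (open circles, spread sideways to be visible) at each stage (x axis, dpf), with the median as a red line; 3 dpf is also shown without E2 replicate 1. The median at 3 dpf is -0.14 with all arrays and 0.01 without that array, and cyp39a1 at 4 dpf rests on 1 pool.

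The largest change at 4 dpf, that of cyp39a1, an oxysterol hydroxylase, rested on 1 array. It was 2.69, 2.01, 1.79 and 9.22 in the E2 pools and 1.43 to 2.78 with DMSO, and only E2 replicate 4 was above background (change 1.72, SE 0.86, adjusted p = 1). That array had the lowest share of spots above background, 58.1%.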

How the data were processed

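RNA of 28 pools of whole embryos was hybridized to one-colour Agilent zebrafish arrays, 1 pool to each. From the scanner output that the authors deposited the processed signal was read, a linear intensity from which Feature Extraction had removed background and a spatial trend. No normalization between arrays had been applied. The version of this software is 11.0.1.1 in the submitters' processing notes and 10.7.3.1 in the file headers. The deposited series table repeats it in 1266160 of 1266160 values. File S1, which lists probes altered by E2, was not used.

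Control spots (1417 per array) and outlier spots were left out, and 0 spots were saturated. Signals were log2 transformed, quantile normalized and averaged per probe, which gave 43603 probes. A model with stage, E2 within stage and replicate number was fitted to all arrays with limma 3.58.1 in R 4.3.3. Where a spot was left out, as for cyp3c1 in E2 replicate 4 of 4 dpf, the fit used the remaining arrays. Tests ran on the whole table and were checked on simulated data. Summaries and figures used Python 3.11.15 with pandas 2.3.3, matplotlib 3.10.9, numpy 2.4.6 and scipy 1.17.1.

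Probes were named through RefSeq accessions, of which 15163 of 19212 matched the reference annotation. Its assembly, GRCz12tu, is not that of the array, so that it gave names and neighbours only. Where one of the groups compared had no array well above background, each of its arrays counted with the lowest signal among probes well above background or, if higher, the probe's own, and "at least" is written. Precision is limited by how many arrays a group has.

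The members, their classes and the gene lists were chosen with earlier results of these data known. Genes were named with values if they met the study criterion for E2, if they were among the 3 largest called rises or falls of a step and above background on every array of a group, or if they belonged to a set list of CYP1, retinoid, vitamin D, sterol, CYP3A, CYP3C, cyp2aa, cyp2k and a few other genes. Others, such as cyp2ad3, cyp2p9, cyp4v2b and cyp39a1, were named after their values were seen.

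At a stage, the labels number the pools of both treatments alike. Across probes, deviations of same-numbered arrays from their group means correlated with r over 0.1 in 14 of 14 pairs (0.173 to 0.649), and the numbers were taken to pair the pools. Pairs were checked within a stage only. The block also joins equal numbers of different stages, which the labels do not show to be the same spawning, and the step calls that need the block rest on this. It has no separate level for each pair of a stage, which bears on the E2 tests too. The median between other numbers was -0.202, but with group means subtracted a negative value there follows from positive same-number values. Apart from replicate 2, same-numbered arrays of a stage also shared a slide, so that pairing and slide cannot be told apart. For replicate 2 the DMSO and E2 arrays of each stage lay in different scan batches. Alternatives were 75th percentile scaling, normexp correction (offset 50), no replicate block, slide or scan batch as block, probes above background only, each stage fitted alone, array weights, any probe of a gene and each array left out. Promoter motifs were not analysed here.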

Additional observations from a re-analysis of the deposited data

Results flagged for a closer look

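In 22 of 207 groups of 4 pools of a member (52 genes at 3 and 4 dpf) the most extreme pool was set off from the rest by more than the 95% limit of Dixon's gap ratio, which chance alone exceeds in about 1 of 20 groups. Of the 22, 13 were E2 replicate 1 of 3 dpf.

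On that array 10 members were set off as low. cyp2k18 was 1.31 (5.30 to 6.09 in the other E2 pools), cyp8b1.3 0.42 (3.94 to 4.25), cyp2x9 3.53 (6.24 to 6.34), cyp8b1.1 6.76 (8.47 to 8.76), and cyp4t8 4.12 (5.63 to 5.77). cyp27c1 was 3.42 (4.89 to 5.14), cyp4v2a 5.16 (6.48 to 6.59), cyp2n13 4.63 (5.83 to 5.96), cyp3c4 3.35 (4.09 to 4.20) and cyp3c1 8.31 (8.85 to 8.94). Set off as high were cyp17a2 at 5.09 (0.73 to 0.83), cyp2p7 at 3.82 (2.74 to 2.83) and cyp46a1.5 at 1.78 (0.55 to 0.61).

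Of the others, E2 replicate 4 of 4 dpf was set off for cyp39a1 at 9.22 (1.79 to 2.69) and for cyp2aa12 at 7.53 (7.35 to 7.38). In the other E2 pools of 4 dpf, cyp2p10 was 6.11 in replicate 2 (6.65 to 6.74 in the rest) and cyp2v1 7.72 in replicate 1 (7.27 to 7.31). Among DMSO pools, cyp2k19 was 4.66 in replicate 2 of 3 dpf (5.04 to 5.08), cyp46a1.3 7.64 in the same pool (6.98 to 7.05) and cyp3c1 8.40 in replicate 1 of 3 dpf (8.85 to 8.93). At 4 dpf, cyp27c1 was 3.76 in DMSO replicate 2 (4.59 to 4.72) and cyp46a1.5 0.81 in DMSO replicate 4 (0.56 in each of the rest), at background.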

How the results depend on the processing

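Of the 67 changes called in the members (65 steps and 2 E2 changes), tested under 36 alternatives each, 2198 of 2412 comparisons kept direction and call, 214 lost the call and 0 changed sign. Of the 36 alternatives 28 left out an array, mostly one outside the 2 groups compared. Such fits could move a change little, so that the share kept is high in part for that reason. For 34 of the 65 steps every alternative kept the call. Without the replicate block 23 step calls were lost, which left 9 members lower from 1 to 2 dpf, 7 higher from 2 to 3 dpf and 1 lower from 3 to 4 dpf. With slide as a block the last 2 counts were 7 and 2, with scan batch as a block 3 members fell from 3 to 4 dpf, and with each stage fitted alone 2 did. The counts of members past the study criterion for E2 became 0 at 1 dpf with 75th percentile scaling and with normexp, and 1 at 2 dpf with array weights. They became 1 at 3 dpf with 75th percentile scaling, with slide as a block and with any probe of a gene, and 0 at 4 dpf with each stage fitted alone and with array weights. The cause of these shifts was not tested.

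With each array left out in turn, the members past the study criterion numbered 0 to 1 at 1 dpf, 0 at 2 dpf, 0 to 1 at 3 dpf and 0 to 2 at 4 dpf. From 1 to 2 dpf 5 to 7 rose and 10 to 19 fell, from 2 to 3 dpf 7 to 13 rose and 2 to 4 fell, and from 3 to 4 dpf 21 to 31 rose and 2 to 5 fell. The highest of these counts, 19, 13, 4 and 31, came without E2 replicate 1 of 3 dpf. That fit also called more of all probes from 1 to 2 dpf. The interaction count stayed 0. Dim probes limit the small fold changes, since 25 members were below background on some array.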
